A study of Mus musculus with 8 samples.

Results

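The integrin and laminin genes are the 37 genes of the deposited table whose symbols name an integrin α subunit (18 genes), an integrin β subunit (8 genes) or a laminin chain (11 genes), out of 24980 genes listed. Membership rests on the symbol, with no measured value in the rule, although the gene family itself was picked with earlier results of these data known, and all 37 passed the filter on low counts. The 8 RNA-seq libraries were of mouse myogenic cells in 4 groups, with 2 biological replicates per group. TF were freshly isolated teratoma-derived progenitors and TE were such progenitors expanded to passage 8. SF were freshly isolated endogenous satellite cells, which are adult muscle's own stem cells, and SE were satellite cells expanded to passage 8. In the paper's main experiments the teratomas grew from EGFP-labeled mouse embryonic stem cells (E14-EGFP). Other pluripotent lines were also tested in the study, and its main text does not name the line behind these libraries. The hosts were irradiated, cardiotoxin-injured tibialis anterior muscles of NSG-mdx4Cv mice, which lack dystrophin and most lymphocytes. The progenitors were sorted as EGFP+, CD31-, CD45-, α7-integrin+ and VCAM-1+ cells. The strain, age and sort of the satellite cell donors are not given in the sources used here. Cultures were kept on gelatin-coated wells in a medium for myogenic expansion, so TE and SE share the culture substrate as well as the passage. Whether the 2 replicates of a group came from separate teratomas or animals is not stated beyond the word biological, and the p-values measure the spread between these libraries.

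Laminins are heterotrimers of 1 α, 1 β and 1 γ chain that build the basement membrane around each muscle fiber, and the satellite cell lies between that membrane and the fiber. Integrins are heterodimers of an α and a β subunit that hold cells to the matrix. The subunits α3, α6 and α7 are classed here as laminin-binding, paired with β1 or, for α6, also with β4. Among these pairs, α7β1 is the main laminin receptor of muscle, and α7-integrin is a standard surface marker in the isolation of satellite cells. The laminin α2 chain, encoded by Lama2, is the main α chain of the adult muscle fiber's basement membrane, and its loss causes a congenital muscular dystrophy. Itga7, and Vcam1 among the ligands, encode proteins that the progenitor sort used, so their levels in TF are partly set by the gate.

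The libraries held between 11930961 and 21146632 estimated counts. Levels are given below as CPM (the share of a library's counts, after TMM scaling), and levels of different genes are compared only per kilobase of exon. Of the marker lists, the satellite cell genes (Pax7, Myf5, Vcam1, Cdh15 and Calcr) summed to between 392 and 1058 CPM in all 8 libraries. Within that sum Pax7, Myf5, Vcam1 and Calcr were called lower in both cultures and Cdh15 higher (0.94 ± 0.22 in TE and 0.73 ± 0.22 in SE), and Calcr, a marker of quiescent satellite cells, was at 0 in both TE and both SE libraries. Fresh libraries also carried RNA of genes listed as markers of other cell types. The 7 endothelial markers summed to 268 and 74.9 CPM in TF and to 288 and 371 in SF, although CD31+ cells were sorted out of TF, and to at most 2.22 in the expanded libraries. The 6 fibro-adipogenic markers summed to 1854 and 1855 CPM in TF and to 895 and 1525 in SF, against 1.56 to 7.32 in TE and SE. The 7 epithelial markers summed to 407 and 138 CPM in TF, 16.4 and 2.89 in SF and at most 2.12 in TE and SE. TF replicate 1 stood apart by its 8 haematopoietic markers, which summed to 231 CPM against 23.2 in TF replicate 2 and at most 12.6 in the other libraries. In bulk RNA, fewer cells of a type and less RNA per cell cannot be told apart. Whether the myogenic cells themselves made part of this marker RNA was not tested.

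Most integrin and laminin genes that changed with culture fell. TE had 4 member genes higher and 18 lower than TF (10.8% and 48.6% of the 37), where 9.86% of all 17582 tested genes were called higher and 16.2% lower. A call required an adjusted p below 0.05 in edgeR's quasi-likelihood test and a fold change above the study's own threshold. SE had 5 member genes higher and 14 lower than SF (13.5% and 37.8%), where 20.9% and 19.8% of all genes were called. The median log2 fold change over the 37 genes was -2.00 in TE versus TF and -1.57 in SE versus SF, beside -0.18 and -0.23 over all genes. By library values, 27 members had both TE libraries below both TF libraries and 7 above (37.7% and 31.8% of all genes), and 17 had both SE libraries below both SF libraries and 8 above (38.4% and 33.9%). The same 13 genes were called lower in both cultures, among them Itga1, Itga8, Itga9, Itga11, Itgam, Itgb2, Lama2, Lama3, Lama4, Lamb2, Lamc1 and Lamc3. Itga3, Itga6 and Itgb6 were called higher in both, and Lamb1 was called in opposite directions. In neither culture were 13 of the 37 genes called. The 2 comparisons share no library, and their log2 fold changes had the same sign for 30 of 37 genes (Pearson's r = 0.577 and Spearman's rho = 0.716 across genes, which share 1 scaling and 1 fit and are not independent replicates, and 5 of which have a fitted value that rests on a group at 0 to 3 counts).

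**Figure D1:**
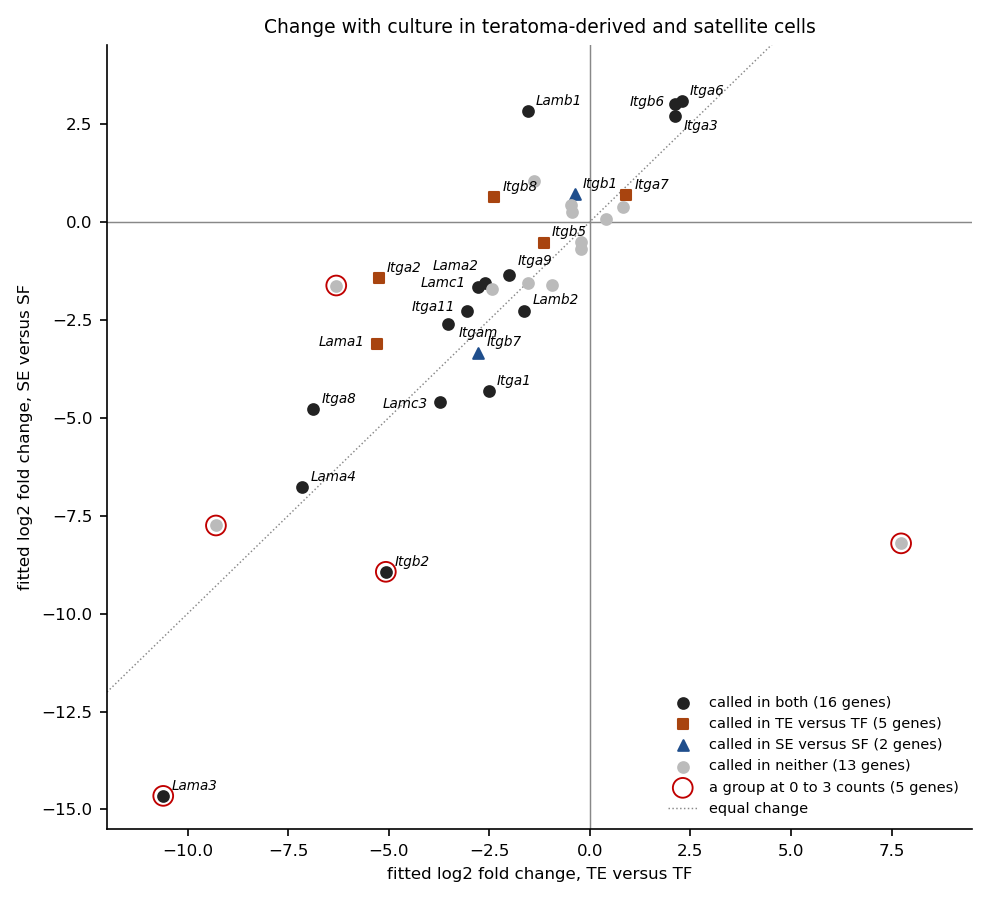
Fitted log2 fold change of 36 of the 37 genes with culture, TE versus TF on the horizontal axis and SE versus SF on the vertical axis, with symbols for the comparison in which a gene was called and red rings for genes with a group at 0 to 3 counts, whose fitted position depends on the prior count. The genes called lower in both lie in the lower left, Itga3, Itga6 and Itgb6 in the upper right, and Lamb1 lies apart at -1.54 and 2.83. The ringed point at the right is Itgad, which was at 0 in both TF and both SE libraries and was not called.

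Most markers of other cell types fell alongside. All 7 endothelial markers were called lower in TE than TF and in SE than SF, and Kdr, Tie1, Emcn and Cldn5 were at 0 in both expanded groups. All 6 fibro-adipogenic markers were called lower in TE and 5 of 6 in SE. All 7 epithelial markers were called lower in TE and 1 of 7 in SE, with Epcam, Krt5, Krt8 and Krt14 at 0 in both expanded groups. Of the 6 pericyte and smooth muscle markers, 5 were called lower in TE (Rgs5, Myh11, Pdgfrb, Notch3 and Cspg4) and 4 in SE (all of these but Cspg4), and Rgs5 was at 0 in both TE libraries. The sixth, Acta2, was called higher in both (1.68 ± 0.51 and 2.38 ± 0.52). The list summed to 1676 and 1929 CPM in TF, 1805 and 1783 in TE, 1835 and 1922 in SF, and 617 and 1740 in SE. Single genes held much of these sums, with Acta2 at 1521 and 1507 CPM in TE and Notch3 at 836 and 997 in SF. The part of myogenic cells in the RNA of this list was not tested. Endothelial, fibroblast, mural and epithelial cells make laminins and integrins as well, and the part of their RNA in the falls was not tested.

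Of the laminin β chains, Lamb1 moved in opposite directions in the 2 kinds of cell, while Lamb2 fell in both. Lamb1 (laminin β1, the most widely used β chain; chromosome 12, 31265234 to 31329644, GRCm38) had 802 and 864 CPM in TF, 279 and 292 in TE, 54.8 and 65.8 in SF, and 554 and 303 in SE. The 4 groups did not overlap, TF being the highest and SF the lowest, and the distance between TE and SE was not called. Lamb1 fell with culture in teratoma-derived cells (log2 -1.54 ± 0.27, SE of the fit, adjusted p = 0.00279) and rose in satellite cells (2.83 ± 0.29, adjusted p = 6.63e-05). The difference between the 2 changes was -4.37 ± 0.39 (adjusted p = 0.000232). Fresh progenitors exceeded fresh satellite cells by 3.79 ± 0.30 (adjusted p = 0.000111).

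Lamb2 (laminin β2, the chain concentrated at neuromuscular junctions) had 358 and 374 CPM in TF and 353 and 465 in SF, so the fresh groups overlapped. It fell to 111 and 126 CPM in TE (log2 -1.63 ± 0.23, adjusted p = 0.000847) and to 68.8 and 101 in SE (-2.27 ± 0.24, adjusted p = 8.20e-05). Per kilobase of exon, Lamb2 made up 91.1% ± 0.7 (SD, n = 2) of the laminin β level in SF and 25.6% ± 12.7 in SE, while Lamb1 rose from 8.28% ± 0.47 to 72.7% ± 12.9. In TF and TE the balance was nearly the same before and after culture, with Lamb1 at 57.8% ± 0.8 and 59.2% ± 1.2. With 2 libraries against 2 an exact permutation test cannot pass 0.05, so the shares carry no test. Lamb3, a chain of epithelial laminin, stayed below 10.3 CPM in every library and was not called.

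The start sites of Lamb1 and Lamb2 are shown because these paralogous chains moved in opposite directions in satellite cells, and those of Itga3 and Itga8 because they rose and fell in both cultures. Each window runs 5′ to 3′ on the gene's strand from 250 bases before to 50 after the start given by RefSeq (GRCm38.p6). Capitals mark E-boxes (CANNTG, the core that MyoD-family and many other basic helix-loop-helix factors bind) and GC boxes (GGGCGG, or CCGCCC on the other strand), both searched on both strands. Lamb1 (chr12:31265043-31265342, plus strand) held 2 E-boxes and 2 GC boxes, and Lamb2 (chr9:108479612-108479911, plus strand) held 1 E-box.
Lamb1: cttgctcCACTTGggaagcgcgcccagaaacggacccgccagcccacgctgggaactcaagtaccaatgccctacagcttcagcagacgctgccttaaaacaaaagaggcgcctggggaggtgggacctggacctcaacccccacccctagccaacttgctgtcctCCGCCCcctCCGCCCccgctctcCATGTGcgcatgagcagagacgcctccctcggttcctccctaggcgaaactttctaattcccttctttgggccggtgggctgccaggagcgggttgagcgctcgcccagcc
Lamb2: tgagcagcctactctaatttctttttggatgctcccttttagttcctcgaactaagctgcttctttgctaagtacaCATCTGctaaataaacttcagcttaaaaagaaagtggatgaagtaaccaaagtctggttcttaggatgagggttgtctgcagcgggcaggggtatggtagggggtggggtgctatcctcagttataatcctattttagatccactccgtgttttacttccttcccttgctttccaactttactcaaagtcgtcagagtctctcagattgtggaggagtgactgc
Itga3 (chr11:95076665-95076964, minus strand) held 1 E-box and 3 GC boxes, and Itga8 (chr2:12301895-12302194, minus strand) held 2 E-boxes.
Itga3: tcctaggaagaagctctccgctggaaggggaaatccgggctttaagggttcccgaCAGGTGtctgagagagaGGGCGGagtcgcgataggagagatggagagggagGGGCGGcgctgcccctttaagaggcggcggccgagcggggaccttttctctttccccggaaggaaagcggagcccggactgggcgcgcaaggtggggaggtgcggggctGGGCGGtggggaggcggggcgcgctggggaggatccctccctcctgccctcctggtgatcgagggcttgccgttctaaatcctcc
Itga8: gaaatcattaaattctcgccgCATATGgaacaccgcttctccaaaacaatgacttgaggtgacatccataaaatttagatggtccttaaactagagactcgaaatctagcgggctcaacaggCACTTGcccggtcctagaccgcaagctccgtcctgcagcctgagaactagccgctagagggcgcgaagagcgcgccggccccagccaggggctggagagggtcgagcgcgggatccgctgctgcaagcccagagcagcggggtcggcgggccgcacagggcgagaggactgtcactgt
Windows were at hand for 23 of the 37 genes. An E-box was found in 19 of them, where 72.3% of all 32851 windows hold one, and a GC box in 11, where 35.7% hold one. The windows of Itga9, Lamb3 and Lama2 lay 105002, 94295 and 2816 bases from the annotated gene start, and each held an E-box. The AP-1 site TGANTCA was in 2 member windows (7.81% of all windows) and the MCAT element CATTCC in 2 (14.7%). A match describes the letters only.

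The γ1 chain, encoded by Lamc1 and shared by most laminins, was the most abundant laminin gene of TF and fell in both cultures. It had 1622 and 1716 CPM in TF, 254 and 233 in TE, 548 and 709 in SF, and 209 and 187 in SE. Every fresh library exceeded every expanded one. The log2 change was -2.78 ± 0.21 in TE (adjusted p = 2.29e-05) and -1.67 ± 0.21 in SE (adjusted p = 0.000203), and TF exceeded SF by 1.41 ± 0.20 (adjusted p = 0.0014). The change was larger in teratoma-derived cells by -1.11 ± 0.28 (adjusted p = 0.0294), a call that ended without TF replicate 1 (-1.14), TF replicate 2 (-1.05), TE replicate 1 (-1.16), TE replicate 2 (-1.04) or SE replicate 1 (-1.02).

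Lamc3 (γ3, a minor γ chain) had 21.3 and 19.7 CPM in TF and 67.3 and 45.6 in SF, and it fell to between 1.14 and 3.20 CPM in the 4 expanded libraries. Its change was -3.71 ± 0.46 in TE (adjusted p = 0.000358) and -4.59 ± 0.47 in SE (adjusted p = 7.01e-05; -5.20 without SE replicate 2). Lamc3 was lower in TF than SF (-1.46 ± 0.41, adjusted p = 0.0278), and this call ended without TF replicate 1 (-1.51), TF replicate 2 (-1.41) or SF replicate 1 (-1.17).

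Of the 5 laminin α chains, 4 fell with culture in at least 1 kind of cell and Lama5 was called in no comparison of the fit over all 4 groups. Lama2 had 1077 and 1374 CPM in TF, 221 and 181 in TE, 465 and 657 in SF, and 204 and 179 in SE. Fresh and expanded libraries did not overlap, and the expanded groups overlapped each other. The change was -2.61 ± 0.25 in TE (adjusted p = 7.34e-05) and -1.55 ± 0.24 in SE (adjusted p = 0.000768). TF exceeded SF by 1.13 ± 0.24 (adjusted p = 0.0084), a call that ended without TF replicate 2 (0.93).

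Lama4 (α4, the chain of endothelial and peripheral nerve basement membranes) had 314 and 297 CPM in TF and 85.9 and 92.1 in SF, and only 2.27 and 2.02 in TE and 0.66 and 0.972 in SE. The 4 groups did not overlap. Its change was -7.15 ± 0.25 in TE (adjusted p = 1.09e-06) and -6.77 ± 0.26 in SE (adjusted p = 1.26e-06). TF exceeded SF by 1.78 ± 0.19 (adjusted p = 0.000328).

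Lama3 (α3, the epithelial chain; chromosome 18) had 51.7 CPM in both TF libraries and 197 in both SF libraries. It was at 0 in both SE libraries and in TE replicate 2, and at 0.0504 CPM in TE replicate 1. Against a floor of 3 counts per library, SE was at least 1258-fold lower than SF, and the ratio of TF to TE was 2022, with a 95% exact counting interval of 362 to 79909 that covers counting error only. Lama3 was lower in TF than in SF (-1.93 ± 0.22, adjusted p = 0.000723). The part of other cell types' RNA in this difference was not tested.

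Lama1 (α1, a chain of early embryos and of few adult tissues) was highest in fresh teratoma-derived cells, with 93.3 and 94.5 CPM in TF. It had 2.12 and 2.70 CPM in TE, 2.91 and 0 in SF, and 0 and 0.343 in SE. TF exceeded SF by 6.03 ± 1.09 (adjusted p = 0.00412), a value that was 13.60 without SF replicate 1 and 5.03 without SF replicate 2. Lama1 fell in TE (-5.28 ± 1.03, adjusted p = 0.00469, and 0.0589 with DESeq2).

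Lama5 (α5, widespread in adult epithelial and vascular basement membranes) had between 126 and 186 CPM in all 8 libraries. Its log2 change was 0.39 ± 0.18 in TE (adjusted p = 0.129) and 0.07 ± 0.18 in SE (adjusted p = 0.773), and the TE value passed with only TE and TF in the fit (0.37, adjusted p = 0.0339). As the other α chains fell, Lama5 took 55.2% ± 1.6 (SD, n = 2) of the laminin α level per kilobase of exon in TE, against 9.43% ± 1.51 in TF, and 50.5% ± 4.8 in SE, against 16.2% ± 2.7 in SF. Lama2 took most of the rest, at 59.0% ± 5.0 in TF, 43.3% ± 1.9 in TE, 47.6% ± 6.4 in SF and 49.1% ± 5.0 in SE. Lama3 took 25.7% ± 2.8 in SF and 3.81% ± 0.33 in TF. With the length of the longest transcript, Lama2 and not Lama5 led in TE (56.2% against 42.2%) and SE (61.9% against 37.6%).

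**Figure D2:**
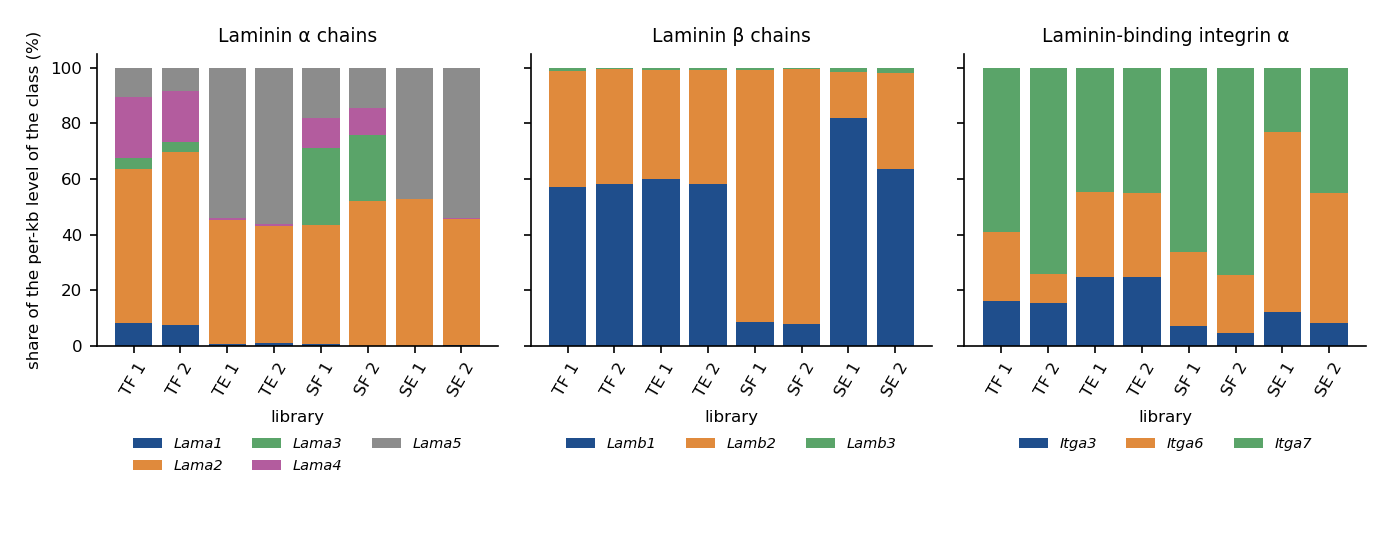
Share of each chain in the summed level per kilobase of exon (percent, vertical axis) for laminin α chains, laminin β chains and laminin-binding integrin α subunits, 1 bar for each of the 8 libraries. Lama5 rises to about the level of Lama2 in the expanded libraries, Lamb2 fills 91.1% of the β level in SF, and Itga6 exceeds Itga7 in both SE libraries (64.9% against 22.9% in replicate 1 and 46.9% against 45.0% in replicate 2).

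Of the laminin-binding α subunits, Itga3 and Itga6 rose in both cultures and Itga7 rose in TE. Beside these rises, the 6 markers of differentiating muscle summed to 790 and 428 CPM in TF, 6624 and 6933 in TE, 95.1 and 75.0 in SF, and 6347 and 13643 in SE, and 5 of the 6 were called higher in each culture. The part of differentiated cells in the rises was not tested. Itga6 (α6, which pairs with β1 or β4) had 71.4 and 31.0 CPM in TF, 242 and 255 in TE, 71.6 and 71.7 in SF, and 759 and 446 in SE. Its log2 change was 2.28 ± 0.38 in TE (adjusted p = 0.00192; 3.02 without TF replicate 1) and 3.07 ± 0.39 in SE (adjusted p = 0.000229). TE and SE did not overlap, and the difference of -1.28 ± 0.36 missed the threshold (adjusted p = 0.0677) but passed it with DESeq2 (adjusted p = 0.00524), without a filter on low counts, with a replicate block and with only these 2 groups in the fit, and without TF replicate 1 (-1.27), TF replicate 2 (-1.27) or SE replicate 2 (-1.61).

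Itga3 (α3, a receptor for laminins with α3 and α5 chains) had 29.2 and 29.6 CPM in TF, 124 and 132 in TE, 11.9 and 9.42 in SF, and 90.5 and 49.1 in SE. All expanded libraries lay above all fresh ones. Itga3 rose by 2.13 ± 0.29 in TE (adjusted p = 0.000617) and by 2.71 ± 0.30 in SE (adjusted p = 0.000108), and TF exceeded SF by 1.46 ± 0.29 (adjusted p = 0.00669).

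Itga7, the sorted receptor, had 152 and 202 CPM in TF, 318 and 342 in TE, 160 and 228 in SF, and 240 and 384 in SE. Fresh groups overlapped each other, and each expanded group lay above its fresh group. The rise of 0.89 ± 0.27 in TE passed (adjusted p = 0.0362), but not without TF replicate 1 (0.73), TE replicate 1 (0.98) or TE replicate 2 (0.87). The value of 0.68 ± 0.27 in SE missed the threshold (adjusted p = 0.0679), and passed it without SF replicate 2 (0.98), without SE replicate 1 (1.0), with a replicate block (adjusted p = 0.0285) and without a filter on low counts (adjusted p = 0.0123).

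Per kilobase of exon the 3 subunits together had 32.7 and 33.8 CPM in TF and SF, and 90.8 and 118 in TE and SE. Itga7 took 66.7% ± 10.8 (SD, n = 2) of that level in TF and 70.5% ± 5.8 in SF, and 44.9% ± 0.2 in TE and 34.0% ± 15.6 in SE. Itga6 took 17.5% ± 10.3 and 23.8% ± 3.9 in the fresh groups, 30.4% ± 0.2 in TE and 55.9% ± 12.7 in SE. Itga3 took 15.7% ± 0.4 in TF and 24.8% ± 0.02 in TE, against 5.68% ± 1.86 in SF and 10.2% ± 2.9 in SE.

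**Figure D3:**
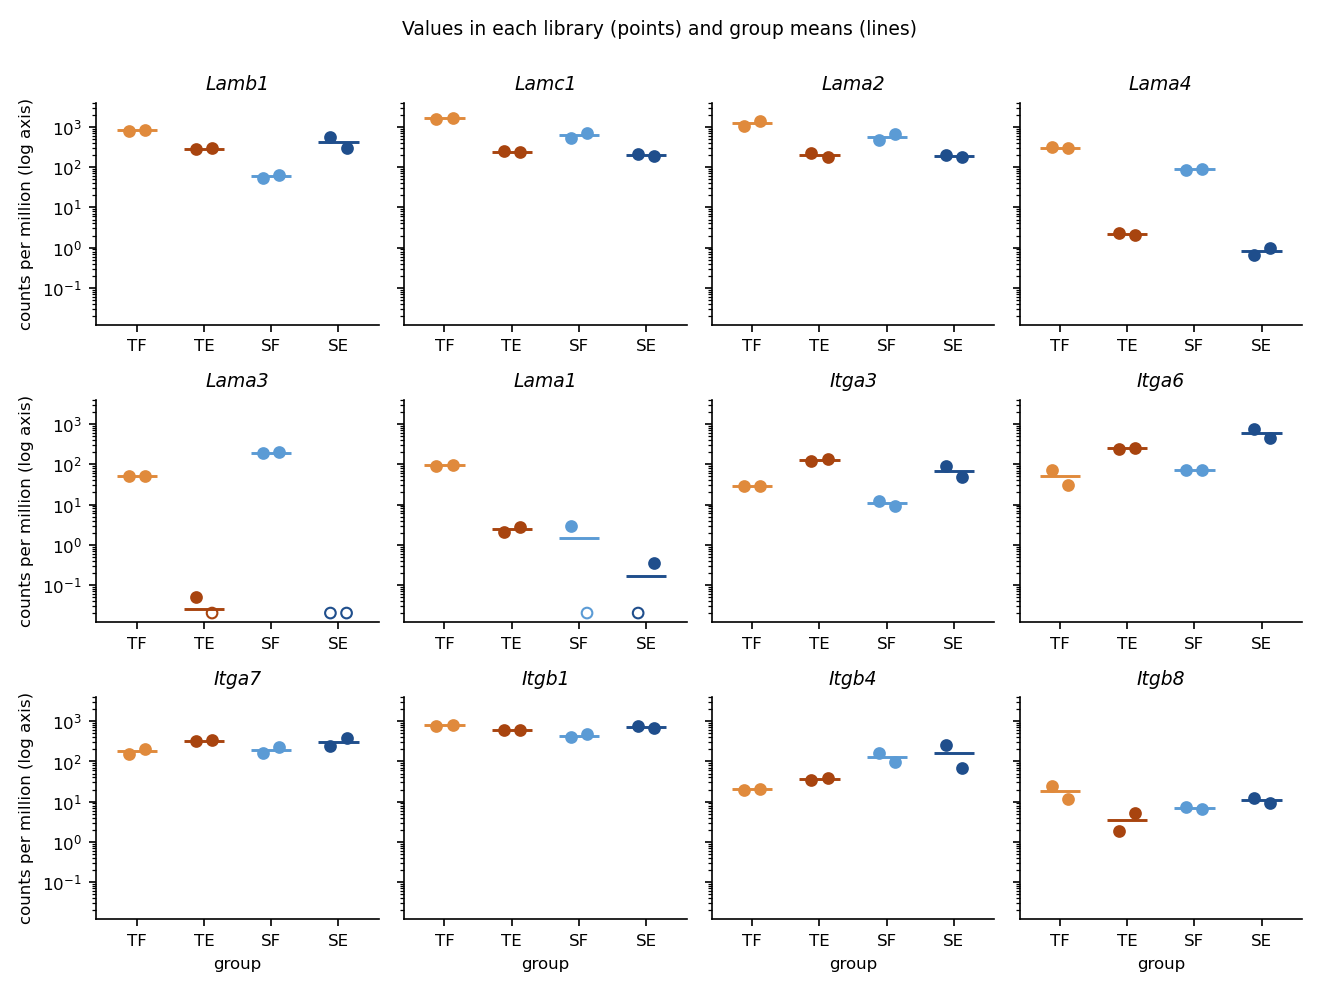
CPM (log axis) of 12 integrin and laminin genes in each library, as 1 point per replicate with a line at the group mean, and open circles at the bottom for libraries at 0. Lamb1 is low in SF alone, Lama3 and Lama4 drop in TE and SE, and Itga3 and Itga6 rise in both.

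Itgb1 (β1, the partner of most matrix-binding α subunits) was the most abundant integrin gene per kilobase of exon in every group. It led all 37 genes in TE (148 ± 4 CPM per kilobase, SD, n = 2), SF (107 ± 13) and SE (173 ± 13), and in TF it overlapped with Lamc1 (193 ± 10 against 202 ± 8). With the length of the longest transcript, Itgb1 overlapped with Itga6 in SE (185 ± 14 against 140 ± 51). Itgb1 had 758 and 818 CPM in TF, 594 and 617 in TE, 398 and 474 in SF, and 746 and 669 in SE. The SF libraries were the lowest of the 8. Itgb1 rose in SE (0.70 ± 0.19, adjusted p = 0.0152), while the TE value of -0.38 ± 0.19 was not called (adjusted p = 0.163), and passed with DESeq2 (adjusted p = 0.0129) and with only TE and TF in the fit (adjusted p = 0.0133). The difference between the changes was -1.08 ± 0.27 (adjusted p = 0.0256), and TF exceeded SF by 0.85 ± 0.19 (adjusted p = 0.0107).

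The Itgb1 calls were of small size. The rise in SE ended without TE replicate 1 (0.72), TE replicate 2 (0.72) or SE replicate 1 (0.63), and with only SE and SF in the fit (adjusted p = 0.0616). The difference between the changes ended without TF replicate 1 (-1.13), TF replicate 2 (-1.01), TE replicate 1 (-1.04) or TE replicate 2 (-1.10). The Itgb1 excess of TF over SF ended without TF replicate 1 (0.91) or TF replicate 2 (0.79).

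Itgb5 (β5, a partner of αv in vitronectin receptors) was higher in teratoma-derived cells both fresh and expanded. It had 233 and 220 CPM in TF, 106 and 97.6 in TE, 54.7 and 75.2 in SF, and 32.1 and 57.7 in SE. TF exceeded SF by 1.80 ± 0.28 (adjusted p = 0.00205), and TE exceeded SE by 1.18 ± 0.28 (adjusted p = 0.0328). Itgb5 fell in TE (-1.15 ± 0.28, adjusted p = 0.0133), a call lost without TF replicate 1 (-1.09), TE replicate 1 (-1.18) or TE replicate 2 (-1.06). In SE its value was -0.53 and was not called, with DESeq2 calling it at -0.72 (adjusted p = 0.0372) and a call at -1.01 without SE replicate 2.

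Itgb4 (β4, the hemidesmosome subunit that pairs with α6) was higher in satellite cells. It had 19.6 and 20.7 CPM in TF, 34.1 and 37.7 in TE, 160 and 96.0 in SF, and 263 and 70.0 in SE. All satellite libraries exceeded all teratoma-derived ones. TF was lower than SF (-2.67 ± 0.52, adjusted p = 0.00605) and TE lower than SE (-2.21 ± 0.51, adjusted p = 0.0296). With culture the values were 0.83 ± 0.50 in TE (adjusted p = 0.243) and 0.38 ± 0.48 in SE (adjusted p = 0.548), and neither was called. Without SE replicate 1 the SE value turned to -0.85 and was called lower (adjusted p = 0.0406), and without SE replicate 2 it was 1.05 and called higher (adjusted p = 0.00705). The TE value was called higher without a filter on low counts (adjusted p = 0.00514), with only TE and TF in the fit (adjusted p = 0.0170), and without SE replicate 1 (0.86) or SE replicate 2 (0.84). Beside the fresh difference, the 5 Schwann cell markers summed to 68.6 and 58.8 CPM in SF against 12.03 and 12.13 in TF. They summed to at most 4.57 CPM in SE, whose Itgb4 levels overlapped with those of SF. Schwann cells express β4, and the part of their RNA in the fresh difference was not tested.

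The smaller β subunits went in several directions. Itgb6 (β6, an epithelial partner of αv) rose from 7.15 and 6.22 CPM in TF to 28.3 and 29.9 in TE (2.12 ± 0.65, adjusted p = 0.0387), and from 7.85 and 1.35 in SF to 24.2 and 49.8 in SE (3.01 ± 0.68, adjusted p = 0.00617). Its TE call ended without any 1 of the TF and TE libraries (2.06 to 2.25), and its SE value was 4.77 without SF replicate 1, 2.26 without SF replicate 2 and 2.42 without SE replicate 2. Itgb8 (β8, which with αv activates TGF-β) had 25.1 and 11.4 CPM in TF, 1.87 and 5.14 in TE, 7.56 and 6.66 in SF, and 12.5 and 9.43 in SE. It fell in TE (-2.38 ± 0.60, adjusted p = 0.0162; -3.26 without TE replicate 2), a call lost without TF replicate 1 (-1.68) or TE replicate 1 (-1.80). The difference between the Itgb8 changes was -3.01 ± 0.82 (adjusted p = 0.0377; -3.91 without TE replicate 2). That call ended without TF replicate 1 (-2.33), TE replicate 1 (-2.45), SF replicate 1 (-3.08) or SF replicate 2 (-2.94), and with a replicate block (adjusted p = 0.0542). Itgb7 (β7, a lymphocyte subunit) had 9.74 and 5.25 CPM in SF and 1.23 and 0.229 in SE (-3.34 ± 1.05, adjusted p = 0.029). Its call ended without SF replicate 1 (-2.83) or SE replicate 2 (-2.59), and the value was -4.96 without SE replicate 1. In TF and TE it had 3.11 and 2.95, then 0.353 and 0.519 CPM, and was not called.

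Among the α subunits that bind the RGD motif of fibronectin, vitronectin and nephronectin, Itga8 (α8) fell in both cultures and Itga5 and Itgav were not called in the fit over all 4 groups. Itga8 had 62.2 and 47.4 CPM in TF, 0.504 and 0.415 in TE, 41.1 and 33.8 in SF, and 0.377 and 2.40 in SE. Its change was -6.87 ± 0.73 in TE (adjusted p = 0.00014) and -4.78 ± 0.64 in SE (adjusted p = 0.000344), with -3.93 without SE replicate 1 and -6.59 without SE replicate 2. Npnt, which encodes the α8 ligand nephronectin, was called higher in both cultures. Itga5 (α5, the fibronectin receptor) lay between 94.5 and 191 CPM in all libraries, with -0.23 ± 0.24 in TE (adjusted p = 0.514) and -0.52 ± 0.24 in SE (adjusted p = 0.104). The Itga5 value in SE passed with DESeq2 (-0.71, adjusted p = 0.0143), with median-ratio scaling and without SF replicate 1 (-0.81). Itgav (αv) lay between 130 and 279 CPM, with -0.46 ± 0.27 in TE (adjusted p = 0.229) and 0.44 ± 0.27 in SE (adjusted p = 0.206). The Itgav value passed in TE with only TE and TF in the fit (-0.48, adjusted p = 0.0247), and in SE without SF replicate 2 (0.81) or SE replicate 2 (0.72). Itga5 had the highest mean level per kilobase of exon of this class in TF, TE and SF. In SE its level overlapped with that of Itgav, and which of them led turned with the length used, Itga5 taking 49.3% against 47.9% by exon union and 41.7% against 54.9% by the longest transcript.

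Of the 4 collagen-binding subunits, Itga1 and Itga11 fell in both cultures and Itga2 in TE. Itga1 (α1) had 76.9 and 104 CPM in TF, 15.7 and 15.8 in TE, 62.7 and 49.7 in SF, and 1.41 and 4.23 in SE. It fell by 2.52 on the log2 scale in TE (SE of the fit 0.40, adjusted p = 0.00157) and by 4.33 in SE (0.45, adjusted p = 7.62e-05), the latter -3.71 without SE replicate 1 and -5.29 without SE replicate 2. TE exceeded SE by 2.50 ± 0.43 (adjusted p = 0.00765), and the value was 1.90 without SE replicate 1 and 3.47 without SE replicate 2. Itga11 (α11, a fibroblast receptor for fibrillar collagen) had 27.1 and 35.8 CPM in TF, 4.59 and 3.01 in TE, 19.8 and 24.4 in SF, and 3.91 and 5.26 in SE. Its change was -3.05 ± 0.39 in TE (adjusted p = 0.00044) and -2.27 ± 0.38 in SE (adjusted p = 0.00125). Itga2 (α2) had 6.64 and 1.75 CPM in TF, 0 and 0.208 in TE, 5.96 and 4.51 in SF, and 2.26 and 1.60 in SE. Its TE call (-5.25 ± 1.4, adjusted p = 0.0213) ended without TF replicate 1 (-3.97) or TE replicate 1 (-4.25), with -5.88 without TF replicate 2 and -9.05 without TE replicate 2.

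Of the subunits α4 and α9, which bind VCAM-1 and other ligands, Itga9 fell in both cultures. Itga9 had 38.5 and 19.6 CPM in TF, 6.81 and 7.68 in TE, 31.0 and 22.1 in SF, and 5.89 and 14.8 in SE. Its TE change of -2.00 ± 0.49 (adjusted p = 0.0152) lost its call without TF replicate 1 (-1.41), TE replicate 1 (-1.89) or TE replicate 2 (-2.07). Its SE change of -1.37 ± 0.48 (adjusted p = 0.0472) lost its call without SF replicate 1 (-1.10) or SE replicate 1 (-0.82), with a replicate block (adjusted p = 0.0609) and with only SE and SF in the fit (adjusted p = 0.0803), and was -2.16 without SE replicate 2. Itga4, the VCAM-1 receptor α4, had 271 CPM in SF replicate 1 and 34.7 in SF replicate 2, with 37.0 and 44.2 in TF, 17.4 and 10.4 in TE, and 50.2 and 52.9 in SE. Its SE value of -1.57 ± 0.69 was not called (adjusted p = 0.0946). Without SF replicate 1 it was 0.57, and without SF replicate 2 it was -2.38 and called.

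The leukocyte integrins were low, and Itgam, Itgb2, Itgax and Itgal were highest in TF replicate 1. Itgam (αM, of macrophages and neutrophils) had 49.4 CPM in that library and 6.94 in TF replicate 2, 2.42 and 2.49 in TE, 26.1 and 16.02 in SF, and 2.26 and 4.63 in SE. Itgb2 (β2, the partner of αL, αM, αX and αD) had 34.2 and 2.79 CPM in TF, 0 and 1.09 in TE, 2.47 and 4.98 in SF, and 0 in both SE libraries. Itgax had 9.59 CPM in TF replicate 1 and was at 0 in TF replicate 2. The haematopoietic markers of these libraries are given above, with Ptprc, Adgre1, Tyrobp and Cd3e at 0 in both expanded groups. Of the 8 markers, 7 were tested (all but Cd3e). Of these, 6 were called lower in TE than TF, and 3 lower and 1 higher in SE than SF. The higher gene was Laptm5 (3.10 ± 1.05), with 0.291 and 1.08 CPM in SF and 6.32 and 5.60 in SE. Without TF replicate 1 the calls in TE ended for Itgam (-3.52 ± 0.82, adjusted p = 0.0117, to -1.47) and Itgb2 (-5.07 ± 1.62, adjusted p = 0.0492, to -2.32). Without TF replicate 2 the values were -4.29 and -5.92. The Itgb2 call in TE also ended without TE replicate 1 (-4.04) or SF replicate 1 (-5.04), with a replicate block (adjusted p = 0.0778) and with median-ratio scaling (adjusted p = 0.0525), and the value was -11.19 without TE replicate 2.

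In satellite cells Itgam fell by 2.61 on the log2 scale in SE (SE of the fit 0.79, adjusted p = 0.0248), a call lost without SF replicate 1 (-2.22) or SE replicate 1 (-2.16), with -3.20 without SE replicate 2. Itgb2 was at least 23.8-fold lower in SE than SF against the floor of 3 counts per library (adjusted p = 0.0206). Itgam, Itgax and Itgad are neighboring paralogs, and reads shared between them may have been divided among the 3 genes.

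**Figure D4:**
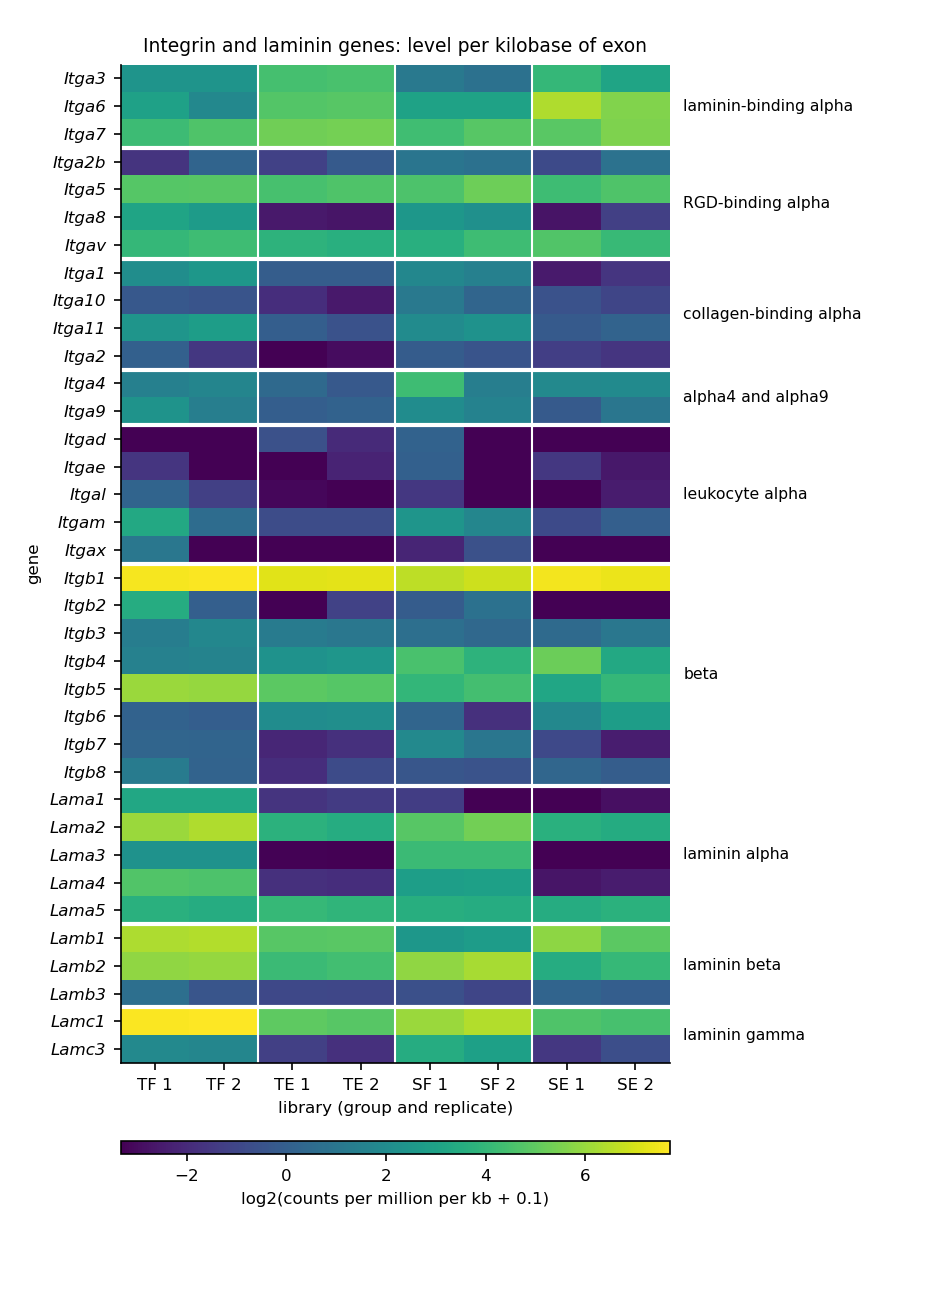
Level of 36 of the 37 genes in each of the 8 libraries as log2(CPM per kilobase of exon + 0.1) (color), with genes in rows grouped by class and libraries in columns. Itgb1 is bright in all columns, Lamc1 is brightest in TF, and Lama3, Lama4 and Itga8 are dark in TE and SE.

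Laminin chains made up most of the members that were higher in fresh teratoma-derived cells than in fresh satellite cells. TF had 8 member genes higher and 3 lower than SF (21.6% and 8.11% of the 37), where 15.1% and 9.13% of all genes were called, and 5 of the 8 were laminin chains (Lama1, Lama2, Lama4, Lamb1 and Lamc1). The other 3 were Itga3, Itgb1 and Itgb5, and the 3 lower genes were Itgb4, Lama3 and Lamc3. Both TF libraries lay above both SF libraries for 15 members and below for 7 (35.5% and 29.3% of all genes). The median log2 difference was 0.42 over the members and 0.08 over all genes. Of all genes called here, 62.3% were higher in TF with TMM scaling and 52.1% with median-ratio scaling, and the 8 and 3 counts were the same under both.

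The expanded populations differed in few members. TE had Itga1, Itgb5 and Lama4 higher and Itgb4 lower than SE, 3 and 1 of 37 genes (8.11% and 2.70%) where 3.15% and 4.07% of all genes were called. Both TE libraries lay above both SE libraries for 9 members and below for 10 (23.9% and 26.1% of all genes). Lama4 was low in both (1.4 ± 0.27, adjusted p = 0.0125). The calls other than that of Itga1 ended when either TE library or SE replicate 1 was left out. The values without TE replicate 1, TE replicate 2 and SE replicate 1 were 1.13, 1.251 and 0.83 for Itgb5, 1.33, 1.49 and 1.15 for Lama4, and -2.13, -2.28 and -0.95 for Itgb4 (-2.87 without SE replicate 2). With only TE and SE in the fit none of these 4 passed (adjusted p = 0.0519 for Itga1, 0.0770 for Itgb4, 0.0698 for Itgb5 and 0.364 for Lama4), while Itga4 and Itga6 were called lower. Without a filter on low counts 6 members were higher and 7 lower, with the shares of all genes in that setting not given here. The levels of Lama2 and Itga7 in TE and SE overlapped.

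The direct test of the difference between the 2 culture effects called 4 of 37 members (10.8%), all lower in the teratoma-derived change, where 4.70% of all genes were called higher and 9.62% lower. They were Lamb1, Itgb8, Itgb1 and Lamc1, with the values given above. By edgeR 0 members were called higher, with 2 higher at an unadjusted p under 0.05. DESeq2 called 2 higher and 5 lower, and its shares over all genes are not given here. Lama2 (-1.06, adjusted p = 0.0622) and Itga1 (1.81, adjusted p = 0.0609) missed the threshold and passed it with DESeq2 (-0.93, adjusted p = 0.0182, and 1.95, adjusted p = 0.0139). Only the Lamb1 difference kept its call without each library in turn, at -4.75 to -3.86.

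Among the partners of laminin in the basement membrane, more genes fell than rose in each culture. Of 12 such genes, 1 was higher and 10 lower in TE than TF, where 9.86% of all genes were called higher and 16.2% lower. In SE versus SF 2 were higher and 5 lower (20.9% and 19.8% of all genes). In TF versus SF 10 were higher and 1 lower (15.1% and 9.13%). Over all genes, TE versus SE had 3.15% called higher and 4.07% lower, and the difference of culture effects 4.70% and 9.62%. Col4a6 and Col4a3, collagen IV chains, fell most in TE (-8.19 ± 0.87 and -5.37 ± 0.56) and in SE. Col4a6 had 13.8 and 11.9 CPM in SF and 0 and 0.172 in SE, and the SE change of Col4a3 was -6.78 ± 0.59. Nid2 (nidogen-2, which links laminin to collagen IV) rose in both (1.17 ± 0.20 in TE and 1.70 ± 0.20 in SE), and Col18a1 rose in SE (3.30 ± 0.30). Col4a6 and Col4a5 led the genes higher in TF than SF (2.42 ± 0.62 and 2.36 ± 0.29), and Col4a4 was lower (-1.56 ± 0.40). Between TE and SE, Nid2 was higher in TE (1.18 ± 0.20) and Sparc lower (-1.18 ± 0.27). The difference of the culture effects was called for 7 of the 12, all lower, led by Sparc (-3.42 ± 0.38) and Col18a1 (-2.74 ± 0.39). All of these values are log2 with the SE of the fit.

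Of 12 other integrin ligands, 1 rose and 9 fell in TE (9.86% and 16.2% of all genes), and 3 rose and 6 fell in SE (20.9% and 19.8%). The shares over all genes in the other comparisons are those given for the laminin partners. Vtn (vitronectin) had 35.2 and 28.3 CPM in TF and 76.2 and 88.7 in SF and was at 0 in all 4 expanded libraries. Postn (periostin, a fibroblast matrix protein) fell in TE (-7.63 ± 1.21) and Icam1 in SE (-8.42 ± 0.52). Npnt rose from 43.5 and 19.5 CPM to 151 and 153 in TE (2.27 ± 0.38) and from 12.1 and 8.35 to 401 and 244 in SE (4.98 ± 0.43). Spp1 (osteopontin) was at 184 and 87.1 CPM in TF, 190 and 197 in TE, 7.85 and 13.1 in SF, and 4278 and 1333 in SE, with a rise of 8.06 ± 0.69 in SE. TF exceeded SF in 7 of the 12, led by Spp1 (3.69 ± 0.57) and Postn (3.51 ± 0.99), and was lower in Vtn (-1.38 ± 0.27). Vcam1, the second sorted protein, had 250 and 337 CPM in TF and 307 and 388 in SF, and 39.1 and 40.4 in TE and 118 and 69.1 in SE. Between TE and SE, Fbn1 (fibrillin-1) was higher in TE (1.0 ± 0.22) and 3 were lower, led by Spp1 (-3.86 ± 0.56) and Emilin1 (-1.77 ± 0.22). The difference of the culture effects was called for 6 of the 12 ligands, all lower, led by Spp1 (-7.55 ± 0.81) and Emilin1 (-3.74 ± 0.31).

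Among the adaptors that tie integrins to actin, more genes rose than fell in each culture. Of 21, 6 rose and 3 fell in TE, where 9.86% of all genes were called higher and 16.2% lower. In SE 10 rose and 4 fell, where 20.9% and 19.8% of all genes were called. The falls were thus near the shares over all genes. The medians were -0.06 in TE and 0.49 in SE. Shares over all genes in the other comparisons are those given for the laminin partners. Itgb1bp2 (melusin, a muscle protein that binds the β1 tail) rose most, from 8.16 and 1.36 CPM in TF to 67.7 and 72.9 in TE (3.89 ± 0.92) and from 3.71 and 0.404 in SF to 26.9 and 80.0 in SE (4.71 ± 0.98). Parvb (β-parvin) rose by 2.81 ± 0.41 and 4.51 ± 0.43. Tns1 (-0.89 ± 0.21) and Tln2 (-0.88 ± 0.19) fell in TE, and Tln2 (talin-2) fell in SE (-1.98 ± 0.20). Lims2 (PINCH-2) had 11.0 and 9.83 CPM in SF and 0 and 0.0572 in SE, against 1.26 and 0.638 in TF and 0.151 and 0.934 in TE, and was called lower in SE. TF exceeded SF in Bcar1 (1.4 ± 0.23), Actn1 (1.23 ± 0.19) and 1 more, and was lower in Tln2 (-1.19 ± 0.19) and Fermt2 (-0.81 ± 0.20). Zyx (zyxin) was the only adaptor called between TE and SE (1.12 ± 0.21). The culture effects differed for 4 adaptors in the higher direction, led by Lims2 at the levels just given and Zyx (1.31 ± 0.30), and 2 in the lower, Bcar1 (-1.50 ± 0.32) and Actn1 (-1.04 ± 0.26). The markers of differentiating muscle rose beside these adaptors too, by the values given with Itga6, and the part of differentiated cells in the adaptor values was not tested.

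Of 7 laminin receptors that are not integrins, 3 fell in TE, where 16.2% of all genes were called lower. In SE 2 rose and 3 fell, where 20.9% of all genes were called higher and 19.8% lower. Shares over all genes in the other comparisons are those given for the laminin partners. Dag1 (dystroglycan, the laminin receptor of the dystrophin complex) fell in both (-1.69 ± 0.31 in TE and -1.51 ± 0.31 in SE), from 1243 and 1629 CPM in TF to 429 and 462 and from 735 and 937 in SF to 202 and 385. Sdc1 (syndecan-1) fell in TE (-1.84 ± 0.19), and Sdc4 (syndecan-4, a satellite cell surface protein) fell in SE (-2.33 ± 0.26). Sdc2 rose in SE (1.26 ± 0.23), as did Rpsa (ribosomal protein SA, listed here as a laminin receptor; 0.81 ± 0.21). TF exceeded SF in Sdc2 (1.76 ± 0.23) and Sdc1 (1.42 ± 0.19) and was lower in Sdc4 (-2.79 ± 0.27). TE exceeded SE in Mcam (1.58 ± 0.29) and was lower in Sdc4 (-1.16 ± 0.25). The culture effects differed upward in Mcam (1.89 ± 0.40) and Sdc4 (1.63 ± 0.36) and downward in Sdc2 (-2.10 ± 0.32) and Sdc1 (-1.93 ± 0.27).

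The 12 members called in none of the 5 tests of the fit over all 4 groups were Itga2b, Itga4, Itga5, Itga10, Itgad, Itgae, Itgal, Itgav, Itgax, Itgb3, Lama5 and Lamb3. Of these, Itga10 reached at most 10.8 CPM in any library, Itga2b 10.1, Itgb3 19.5, and Itgad, Itgae, Itgal and Itgax at most 4.51, 4.36, 7.06 and 9.59. Each of these last 4 genes was at 0 in at least 3 libraries.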

How the data were processed

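RNA-seq was done on 8 libraries (paired reads, SMARTer Stranded Total RNA-Seq Pico kit). Per the submitters' processing notes the tools were CASAVA and kallisto 0.44.0 and the build GRCm38. The authors deposited estimated counts for 24980 gene symbols, not normalized. How transcripts were summed to genes is not given in the sources used here. The estimated counts were rounded, filtered with filterByExpr (17582 genes), scaled by TMM and tested with edgeR 4.0.16 (R 4.3.3, quasi-likelihood, 1 fit over 4 groups, Benjamini-Hochberg over all genes). The study's text names no test. Its thresholds, an adjusted p below 0.05 and a fold change above 1.25, were used. The script was tested on simulated data. Totals of 11930961 to 21146632 counts per library set the precision of low values, and floors of 3 counts cover counting error only. Exon lengths came from GENCODE M21 (GRCm38). Every member is counted, 1 member is not reported here by name, values by library are given for called members and class leaders, and for partner lists the 2 called genes of largest change in each direction are named. The members and lists were chosen with earlier results of these data known. Alternatives were DESeq2 1.42.0, size factors by the median-ratio method, a replicate block, keeping all low-count genes, a fit of only the 2 groups compared, each library left out in turn, and the longest transcript as length.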

Additional observations from a re-analysis of the deposited data

Results flagged for a closer look

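The test of the difference between the 2 culture effects (TE versus TF minus SE versus SF, log2) drew attention to 4 genes, all called lower. They were 10.8% of the 37 members, near the 9.62% of all genes called lower. No member was called higher, beside 4.70% of all genes. Lamb1 differed by -4.37, falling in teratoma-derived cells and rising in satellite cells. Itgb8 differed by -3.01, Lamc1 by -1.11 and Itgb1 by -1.08. The Lamb1 difference passed without each library in turn, and the other 3 each lost the call without at least 4 of the 8 libraries.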

How the results depend on the processing

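The 60 gene and comparison calls kept their direction under every alternative run, and 36 kept the call under all of them. Median-ratio scaling kept 59 (all but Itgb2 in TE), no filter 60, DESeq2 59 (all but Lama1 in TE), a replicate block 57 and only the 2 groups compared 49 of 56, while leaving out 1 library kept 46 to 59. Deviations between the 2 replicates of a group were nearly uncorrelated between groups (correlations between -0.023 and 0.066). With 2 libraries a group, this cannot exclude that like-numbered libraries share an origin, which the sources do not state. With a replicate block the counts were 4 higher and 17 lower in TE versus TF and 6 and 13 in SE versus SF, and TE versus SE had 2 lower and the difference of culture effects 1 higher. Median-ratio scaling moved the median log2 change of all genes from -0.23 to -0.43 in SE versus SF, from 0.08 to -0.08 in TF versus SF and from -0.18 to -0.04 in the difference of culture effects. It gave 1 member higher in that difference. Without a filter there were 5 lower in TF versus SF, 6 higher and 7 lower in TE versus SE, and 2 higher and 8 lower in the difference. DESeq2 gave 3 lower in TE versus SE and 2 higher in the difference. With only the 2 groups compared there were 7 higher in TE versus TF and, in TE versus SE, 0 higher and 2 lower. The shares of all genes called under these alternatives, fits without 1 library included, are not given here. The shifts in counts therefore cannot be read as particular to the members, and their cause was not tested. Without 1 library the higher calls ranged from 2 to 5 in TE versus TF, 1 to 4 in TE versus SE and 0 to 1 in the difference, and the lower calls from 0 to 4 in TE versus SE and 1 to 6 in the difference. Reversed values, in comparisons where the gene was not called in the report, were Itga4 in SE versus SF (0.57 without SF replicate 1 and -2.38 without SF replicate 2), Itgb4 in SE versus SF (-0.85 without SE replicate 1, called lower at an adjusted p of 0.0406, and 1.05 without SE replicate 2, called higher), and Lama5 in SE versus SF (-0.13 with median-ratio scaling and with DESeq2, and -0.030 to 0.19 without 1 library). By longest transcript Lama2 took 56.2% in TE, 56.0% in SF and 61.9% in SE, Lama5 took 5.84% in TF, 42.2% in TE, 11.3% in SF and 37.6% in SE, Lamb1 took 68.4% in TF, 69.6% in TE and 12.5% in SF, and in TE Itga6 took 34.7% and Itga7 49.4%. Values near the floor of 3 counts (0.141 to 0.252 CPM by library) rest on few reads. Genes below about 10 CPM, like all others, rest on 2 libraries a group.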
